A study of Mus musculus with 18 samples.

Results

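The miR-15/16 family is a group of microRNAs (miRNAs) that share the seed, bases 2 to 8 of the mature strand, and its reads were followed here through libraries of chimeric reads from mouse thymocytes. A read was taken as a member when its miRNA was named miR-15a-5p, miR-15b-5p, miR-16-5p, miR-195a-5p, miR-322-5p or miR-497a-5p. These 6 names held 22558 of the 411434 chimeric reads in 6 libraries, and 4 of the 6 names had reads among 369 miRNA names seen there. The assay, miR-eCLIP, fixes RNA to proteins with 254-nm UV light and pulls down Argonaute 2 (Ago2 IP), the effector protein into which miRNAs are loaded. Each miRNA is then ligated to a piece of the RNA bound with it, and a chimeric read gives the name of the miRNA and a position in the RNA it was joined to. Total thymocytes came from mice that were 6 weeks old and kept under SPF (specific-pathogen-free) conditions. The wild type was C57BL/6 and the knockout, labelled miR181a/b-1-KO, lacked miR-181a-1 and miR-181b-1, with 3 libraries in each group. The labels do not say whether the 3 libraries of a group came from separate mice, so p-values measure the spread between libraries, which may be technical.

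A miRNA pairs with its targets mainly through the seed, and Ago2 loaded with it lowers the stability and translation of the mRNA. Members of the miR-15/16 family are known for restraining the cell cycle and survival, with D-type cyclins and Bcl2 among their described targets, and loss of the miR-15a/16-1 cluster is a known lesion in lymphoid leukaemia. The members come from several clusters of miRNA genes: Mir15a with Mir16-1, Mir15b with Mir16-2 inside Smc4, Mir195a with Mir497, and Mir322 on the X chromosome.

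The mature strands below, from RefSeq, are shown because members with 1 seed differ in the bases that follow it, and capitals mark bases 2 to 8. miR-503-5p is no member and is printed because its seed differs from that of the family at the last base. The prefix mmu marks mouse and is left out elsewhere.
mmu-miR-15a-5p: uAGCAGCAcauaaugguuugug
mmu-miR-15b-5p: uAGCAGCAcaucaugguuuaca
mmu-miR-16-5p: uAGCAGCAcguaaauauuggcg
mmu-miR-195a-5p: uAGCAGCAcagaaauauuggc
mmu-miR-322-5p: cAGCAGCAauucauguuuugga
mmu-miR-497a-5p: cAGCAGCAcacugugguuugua
mmu-miR-503-5p: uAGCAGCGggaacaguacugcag

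Beyond position 8, miR-16-5p shared 8 of 14 bases with miR-15a-5p, 6 of 14 with miR-15b-5p, 5 of 14 with miR-322-5p, 4 of 14 with miR-497a-5p and 11 of 13 with miR-195a-5p, compared position for position. In RefSeq, 10 mouse names carried the seed. The 4 of them that are no members (miR-195b, miR-6342, miR-6353 and miR-6419) had 0 reads.

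Libraries held between 43983 and 117849 chimeric reads. The knockout was visible in them: reads named for the 5p strands of miR-181a to miR-181d made up 30.1% to 32.3% of the wild-type libraries and 1.32% to 1.44% of the knockout libraries, and the Mir181a-1 hairpin held 545, 379 and 363 reads in the wild type and 0, 0 and 0 in the knockout. Shares were therefore taken of the reads of all other miRNAs, called non-181 reads, which numbered 29782 to 82339 a library. Only the 5p strands were left out, so non-181 reads still hold miR-181a-1-3p. That strand was also lower in the knockout (log2 difference -7.17 in the edgeR test of miRNA names below). Marker genes of thymocytes had reads for 12 of 12 genes, 554 to 1743 a library, against at most 4 a library for 5 B cell markers, at most 4 for 5 myeloid markers, at most 7 for 6 erythroid markers and 0 for 5 markers of thymic epithelium. Libraries of a group differed by more than sampling noise over miRNA names (chi-square test, largest p = 0.00633), and none was merged with another in the edgeR, DESeq2 and permutation tests. Wilson intervals below use reads summed over the 6 libraries, so they cover counting error only and not the spread between libraries.

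The family held 5582, 3232 and 2025 reads in the wild-type libraries and 4032, 4305 and 3382 in the knockout libraries. These were 6.78%, 6.77% and 6.80% of non-181 reads in the wild type and 6.72%, 6.45% and 6.59% in the knockout. The groups did not overlap, with 6.78% ± 0.0139 (SD, n = 3) against 6.59% ± 0.134 (SD, n = 3) and a difference of -0.196 percentage points. The exact two-sided permutation test gave p = 0.1, the smallest that 3 against 3 libraries allow, and an adjusted p of 0.225 over 9 tests, so the difference did not pass the threshold of 0.05. Measured against all chimeric reads, of which miR-181 takes a large share in the wild type only, the difference had the other sign, at 1.82 percentage points. Of non-181 reads, miR-16-5p (mean 5.87% against 5.64%) and miR-15a-5p (0.214% against 0.200%) did not overlap either (exact permutation p = 0.1 each). On the same share miR-15b-5p and miR-322-5p overlapped. How many other miRNA names separate in this way was not counted. In libraries of whole thymocyte suspensions, a change in the mix of cells and a change in RNA within each cell cannot be told apart.

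miR-16-5p was the leading member, with 19424 of the 22558 family reads (86.1%). miR-15b-5p followed with 2382 reads (10.6%) and miR-15a-5p with 704 (3.12%). Fewer reads named miR-322-5p, 48 in all (0.213%), with 1 to 14 a library. miR-195a-5p and miR-497a-5p had 0 reads, which allows a share of up to 0.000888% of non-181 reads (3 reads over the 6 libraries, counting error only). miR-503-5p, whose gene lies beside Mir322, had 251 reads, of which 97 were wild-type and 154 knockout reads. The passenger strands were rarer than the 5p strands, with 117 reads of miR-15b-3p, 92 of miR-15a-3p, 63 of miR-16-2-3p and 25 of miR-16-1-3p.

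The make-up of the family was then compared library by library. miR-16-5p took 86.6%, 87.4% and 85.7% of the family in the wild type and 85.6%, 85.8% and 85.3% in the knockout, and the groups overlapped (exact permutation p = 0.2, n = 3 against 3). miR-15b-5p took 9.85%, 9.41% and 11.2% in the wild type and 11.2%, 10.8% and 11.4% in the knockout, also with overlap (exact permutation p = 0.2, n = 3 against 3). miR-15a-5p took 3.15% ± 0.186 (SD, n = 3) and 3.04% ± 0.0107 (SD, n = 3). miR-322-5p did not overlap, with 0.144% ± 0.0822 (SD, n = 3) in the wild type and 0.253% ± 0.0651 (SD, n = 3) in the knockout (exact permutation p = 0.1, adjusted p = 0.225 over 9 tests), and its lowest library held 1 read.

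**Figure D1:**
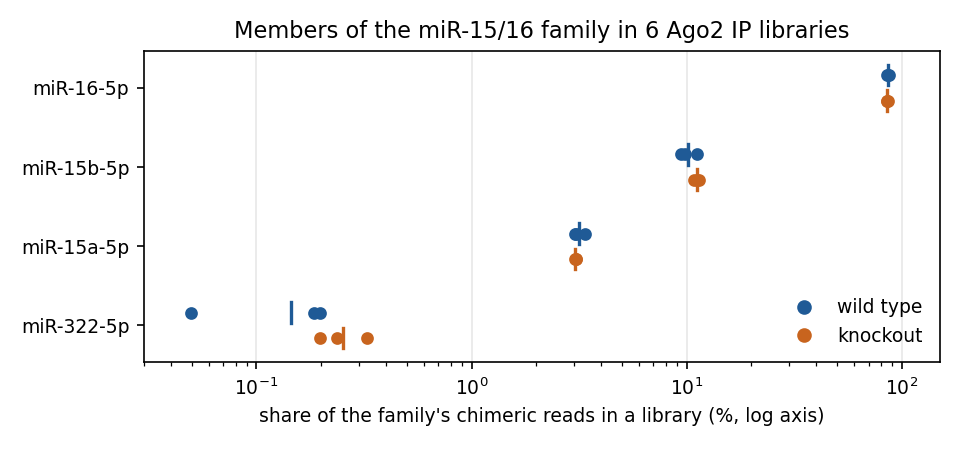
Share of each member among the family's chimeric reads in a library (%, log axis), with 1 point for each of 3 wild-type and 3 knockout libraries and a vertical bar at the group mean. miR-16-5p lies between 85.3% and 87.4% in every library, and on this share only miR-322-5p, with 1 to 14 reads a library, has groups that do not overlap.

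Each member was also tested among all miRNA names with edgeR's quasi-likelihood test. Of 117 names tested, 10 were called at an adjusted p of at most 0.05 (8.55%), and no member was among them. In the knockout 4 of the 10 were higher (3.42%) and 6 lower (5.13%). Most of the 6 lower names were strands of miR-181: miR-181a-5p, miR-181b-5p, miR-181a-1-3p and miR-181d-5p. The others were miR-150-5p and miR-342-3p. These percentages therefore include miR-181 itself. The log2 difference of knockout over wild type was -0.15 (SE 0.10) for miR-15a-5p, 0.07 (SE 0.07) for miR-15b-5p and -0.09 (SE 0.04) for miR-16-5p, with edgeR adjusted p-values of 0.313, 0.494 and 0.135. These values use TMM factors (trimmed mean of M-values, a scaling of libraries to each other), and over all names tested the median was 0.00. With library sizes alone, where the loss of miR-181 reads raises the share of every other name, the same members stood at 0.40, 0.62 and 0.46 and 89 names were called. For edgeR, SE here and below is the absolute log2 difference divided by the square root of the test's F statistic. It can understate the uncertainty that the p-value carries. miR-322-5p had too few reads to be tested.

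Of the family reads, 20973 (93.0%) fell in a gene span of RefSeq's GRCm38.p6 table, in 5391 gene names. Spans cover introns as well as exons, and whether a read lay in an exon or a UTR was not analysed here. Reads were spread thinly. There were 2263 gene names with 1 family read, 409 with at least 10 and 60 with at least 30, and the 10 leading names held 6.03% of the family. Joining reads at most 20 nt apart on a strand gave 17832 sites, of which 16096 held 1 read. At this depth, most single genes could not be compared between genotypes. Protein-coding spans held 87.9% of family reads and 88.9% of the reads of other non-181 miRNAs. The mitochondrial chromosome held 0.244% of family reads against 1.30% of the others. In the last 10% of protein-coding spans lay 24.4% to 26.6% of family reads a library, a range that overlapped the 25.9% to 27.1% of other non-181 reads. The first 10% of spans held 6.58% to 7.79% of family reads and 5.98% to 6.39% of the others, without overlap in 6 libraries. For miR-142a-3p alone the range was 5.52% to 6.59% and for miR-181 5.26% to 7.93%, and both overlapped that of the family.

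The 10 gene spans with the most family reads were Malat1, Gnas, Rn18s-rs5, Satb1, Btg2, H4c12, Ccnd3, Bcl11b, Gm4258 and H4c11. Counts were not scaled by the length of a span, so they are compared between libraries and between miRNAs of 1 gene, not between genes. Malat1, a long noncoding RNA of the nucleus, held 69, 40 and 32 family reads in the wild type and 62, 62 and 58 in the knockout. Gnas, which encodes the stimulatory G protein alpha subunit, held 52, 27 and 19 reads in the wild type and 34, 30 and 35 in the knockout. Per 1000 family reads of a library, Gnas stood at 9.02 ± 0.576 (SD, n = 3) and 8.58 ± 1.70 (SD, n = 3), and its groups overlapped. Satb1, a chromatin organiser of developing T cells, held 41, 21 and 9 reads in the wild type and 17, 23 and 15 in the knockout. Btg2, an antiproliferative gene induced by p53, held 25, 18 and 15 against 25, 16 and 12. Bcl11b, a transcription factor that fixes T cell identity, held 21, 10 and 6 against 19, 13 and 12. Rn18s-rs5, related in sequence to 18S ribosomal RNA, and the histone genes H4c11 and H4c12 belong to groups of near-identical copies, so that their reads may come from other copies.

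**Figure D2:**
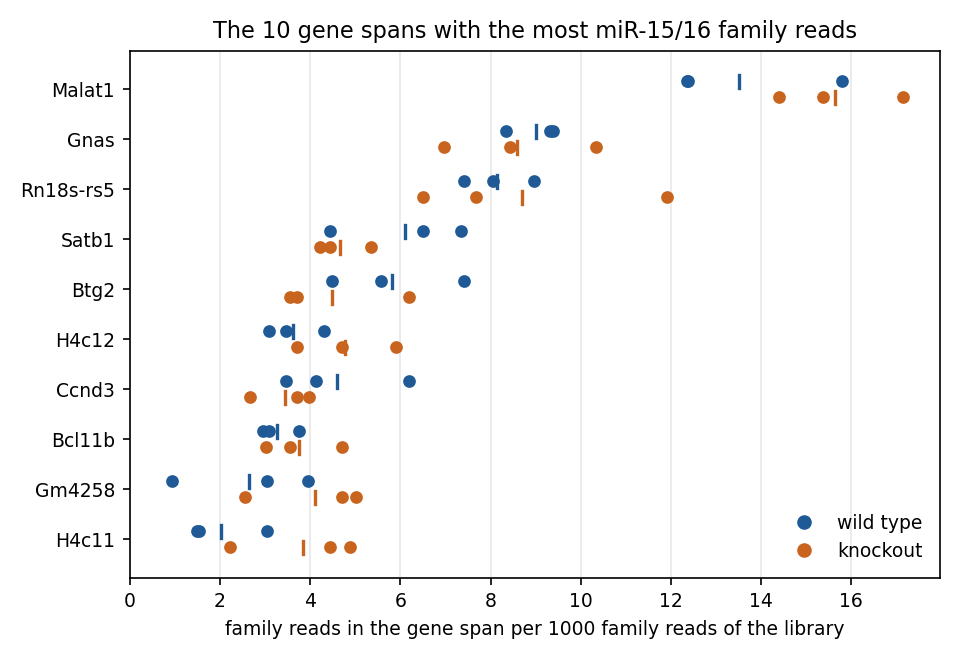
Family reads in the 10 leading gene spans per 1000 family reads of the library, with 1 point a library and a vertical bar at the mean of 3 wild-type or 3 knockout libraries. Malat1 has the highest rate in all 6 libraries, and of the 10 genes the rates of wild type and knockout overlap in all.

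To see which genes held more family reads than the other miRNAs of the same libraries would give them, family reads and other non-181 reads of each gene were compared with the library as a block. Of 197 genes tested with edgeR's quasi-likelihood test, 59 were called (29.9%), 27 higher (13.7%) and 32 lower (16.2%) for the family, and the median log2 difference of all genes tested was -0.12. The filter on low counts bears on these numbers. A gene could pass it through either kind of read, and passed through 1 kind alone where only that kind reached the minimum in all 6 libraries. Through family reads alone 13 genes passed, of which 12 were higher and 1 was not called, and through other reads alone 84 passed, of which 28 were lower and 56 were not called. For such genes the filter favours the direction of the call, so their values are given as descriptions, without a p. They are Gnas, H4c12, H4c11, Thy1, Pacc1, Arhgdia, Ccr7 and Desi1 among the higher genes named below and ND4, mt-Rnr1, Xiap, Cdkn1b, Ino80c and Rag1 among the lower. Of the 41 genes that passed through both kinds of read in all 6 libraries, 10 were higher, 2 were lower and 29 were not called. In knockout libraries alone 89 genes were called, and in wild-type libraries alone 26.

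In the span of Gnas, 197 reads named the family and 56 named any other non-181 miRNA, so that the family held 77.9% of non-181 reads there (95% Wilson interval 72.4% to 82.5%) against 6.68% overall. In single libraries this share ran from 70.4% to 85.4%. The log2 difference from other miRNAs was 5.59 (SE 0.22), and 4.48 with repeated lines counted once. Malat1, which passed through both kinds of read, held 323 family and 689 other reads, a family share of 31.9% (28.4% to 40.5% a library), with a log2 difference of 2.71 (SE 0.12, edgeR adjusted p = 2.04e-61). The size of this p depends on the setting. Its edgeR adjusted p was 1.79e-04 in wild-type libraries alone (2.65), 2.96e-49 in knockout libraries alone (2.77) and 1.23e-21 without the library block (2.74). Btg2 held 111 family and 507 other reads and differed by 1.61 (SE 0.17). miR-181 was also frequent in Btg2, with 54.7% of all its wild-type reads.

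The other higher genes had fewer reads. Thy1, a surface glycoprotein of thymocytes, held 58 family reads against 95 others, a log2 difference of 3.07 (SE 0.29). Ccr7, a chemokine receptor of maturing thymocytes, held 33 against 77, a difference of 2.55 (SE 0.36). Its family reads were 13, 5 and 3 in the wild type and 3, 5 and 4 in the knockout. Arhgdia, an inhibitor of small GTPases, held 27 against 50 and differed by 2.89 (SE 0.40). Desi1, a desumoylating peptidase, held 34 against 86 and differed by 2.45 (SE 0.35). Pacc1, a proton-activated chloride channel, held 27 against 14 and differed by 4.62 (SE 0.46), with 25 of its family reads at 1 position. With repeated lines counted once Pacc1 was not tested. The histone genes H4c12 (96 against 22 reads, log2 difference 5.84) and H4c11 (70 against 77, 3.65) complete the 10 higher genes of smallest p. Without miR-142a-3p among the other reads these histone genes stood at 6.93 and 6.26, and with repeated lines counted once H4c12 stood at 5.22. Arhgdia and Ccr7 were not tested without miR-142a-3p. That all 10 lay on 1 side in every library was part of the rule that named them.

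Among the remaining genes with the most family reads, Rn18s-rs5 (log2 difference 0.87, SE 0.14) and Bcl11b (0.64, SE 0.18) were also higher and Gm4258, a noncoding RNA, was lower (-0.55, SE 0.19), while Satb1 was not called (-0.04, SE 0.16, edgeR adjusted p = 0.878). The call on Bcl11b was lost without knockout library 1 (0.48), in wild-type libraries alone (0.56) and without miR-142a-3p (0.29). That on Gm4258 was lost without wild-type library 2 (-0.46), without knockout library 2 (-0.36), in wild-type libraries alone (-0.19), without the library block, without miR-142a-3p (-0.37) and without a filter.

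The lower genes had many reads of other miRNAs and few of the family. ND4, a mitochondrial subunit of respiratory complex I, held 3 family reads against 675 others, a log2 difference of -3.96 (SE 0.47). All 3 reads were in wild-type libraries 1 and 2, and the value was -5.29 without wild-type library 2, -2.91 in wild-type libraries alone and -3.31 with repeated lines counted once. The mitochondrial ribosomal RNA mt-Rnr1 held 13 against 962 and differed by -2.40 (SE 0.31). Ino80c, a subunit of the INO80 chromatin remodelling complex, held 0 family reads against 321 others, at least 7.65-fold lower against 3 reads over the 6 libraries. Ino80c missed the threshold in wild-type libraries alone, and it was not tested with repeated lines counted once. Neither ND4 nor Ino80c was tested without miR-142a-3p among the other reads, so how far that miRNA sets their values is unknown. Among genes chosen after their values were seen, Rag1, a recombinase of antigen receptor genes, held 22 family and 950 other reads and differed by -1.63 (SE 0.27), or by -0.75 without miR-142a-3p. Themis, a regulator of thymocyte selection, held 69 against 1672 and differed by -0.79 (SE 0.19), a call that was lost when miR-142a-3p was left out of the other reads (-0.44, edgeR adjusted p = 0.0950).

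**Figure D3:**
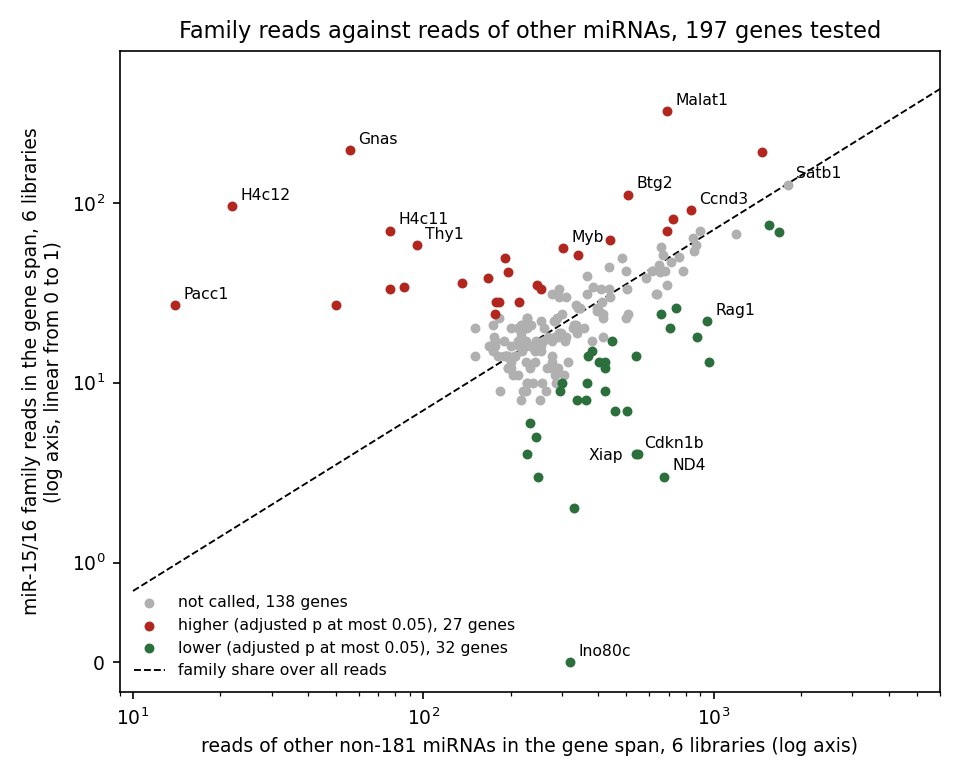
Family reads (vertical, log axis that is linear from 0 to 1) against reads of other non-181 miRNAs (horizontal, log axis) in 197 gene spans, summed over 6 libraries, with colours for the edgeR calls and a dashed line at the family's share over all reads. Gnas, H4c12 and Pacc1 lie far above the line, Ino80c has 0 family reads, and Satb1 lies close to the line.

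Of 32 cell cycle genes, 21 had a family read and 7 had at least 10, and the list held 263 family reads among 3041 non-181 reads (8.65%, against 6.68% over all reads). Most of these 263 reads lay in Ccnd3 and Myb, so the pooled share is no result about the list. Only 3 of the 32 genes were tested against other miRNAs, too few for a result about the list. Of these 3, Ccnd3 and Myb were higher and Cdkn1b lower, with a median log2 difference of 0.60 against -0.12 over all genes tested, of which 13.7% were higher and 16.2% lower. Ccnd3 and Myb passed the filter through both kinds of read, and of 41 such genes 10 were higher. Ccnd3, the D-type cyclin of thymocyte expansion, held 23, 20 and 7 family reads in the wild type and 16, 16 and 9 in the knockout. Against 836 other reads this was a log2 difference of 0.60 (SE 0.17, edgeR adjusted p = 0.00277), above the family's share in 5 of 6 libraries. The call on Ccnd3 was lost with DESeq2 (0.47, adjusted p = 0.0750), with strand ignored in naming (0.43, edgeR adjusted p = 0.0601) and in either genotype alone. Its reads lay at 50 sites, the largest of which held 16.

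Myb, a transcription factor of proliferating progenitors, held 12, 5 and 3 family reads in the wild type and 10, 14 and 12 in the knockout. Against 302 other reads the log2 difference was 1.37 (SE 0.24, edgeR adjusted p = 1.64e-07), above the family's share in 6 of 6 libraries. In wild-type libraries alone it was 0.97 and missed the threshold (edgeR adjusted p = 0.126). A single site at chr10:21125362-21125481 (minus strand) held 43 of its 56 family reads, on 32 positions. Cdkn1b, which encodes the cyclin-dependent kinase inhibitor p27, had 1, 0 and 0 family reads in the wild type and 1, 1 and 1 in the knockout against 539 of other miRNAs, a log2 difference of -3.24 (SE 0.46). It was -2.63 with repeated lines counted once and -4.12 in wild-type libraries alone. Cdkn1b was not tested without miR-142a-3p among the other reads.

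The other cell cycle genes with at least 10 family reads were too thinly read to be tested. Cdk6, a partner kinase of D-type cyclins, held 19 family reads among 154 non-181 reads (12.3%, 95% Wilson interval 8.04% to 18.5%). For Ccnt2, a cyclin of transcription elongation, the values were 18 of 142 (12.7%, 8.17% to 19.1%). Wee1, a kinase that holds back mitosis, held 11 of 81 (13.6%, 7.76% to 22.7%), with 8 of the 11 at chr7:110142605-110142648 on the plus strand. Rbl1, the pocket protein p107, held 11 of 59 (18.6%, 10.7% to 30.4%) and Ccnd2, a further D-type cyclin, 10 of 53 (18.9%, 10.6% to 31.4%). These 5 genes were named for having family reads, and their intervals pool the libraries and cover counting error only, so their shares are not set against the 6.68% over all reads. In single libraries the share ranged down to 0% in Cdk6, Wee1, Rbl1 and Ccnd2.

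Survival genes were read thinly. Of 25 genes, 13 had a family read and 5 had at least 10, with 97 family reads among 1936 non-181 reads (5.01%). Of the 4 genes tested against other miRNAs, 0 were higher, Xiap was lower, and Bcl2, Bcl2l1 and Birc6 did not pass. Over all genes tested 29.9% were called, so 1 of 4 is no result about the list. Bcl2, the antiapoptotic protein best known as a target of this family, held 3, 2 and 2 family reads in the wild type and 2, 2 and 6 in the knockout among 276 non-181 reads. Its family share was 6.16% (95% Wilson interval 3.88% to 9.64%), and the log2 difference was -0.12 (SE 0.38, edgeR adjusted p = 0.848), so that no difference from the share of other miRNAs was detectable at this depth. Bcl2l1, which encodes Bcl-xL, held 12 of 208 (5.77%, 3.33% to 9.81%) and Birc6, an inhibitor of apoptosis, 20 of 220 (9.09%, 5.96% to 13.6%). Xiap, an inhibitor of caspases, held 0, 0 and 0 family reads in the wild type and 2, 1 and 1 in the knockout against 550 of other miRNAs, a log2 difference of -3.27 (SE 0.46). The value was -3.96 without knockout library 1, -3.90 without miR-142a-3p and -2.34 in knockout libraries alone. Il7r, the receptor of the survival cytokine interleukin 7, held 12 of 72 (16.7%, 9.80% to 26.9%), and Pdcd4, a tumour suppressor that restrains translation, 10 of 93 (10.8%, 5.95% to 18.7%). Neither Il7r nor Pdcd4 was tested, and both were named for having family reads. Their intervals cover counting error only, so their shares are not set against the 6.68% over all reads.

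Of 40 genes published as targets of miR-15/16, 29 had a family read and 8 at least 10, and together they held 302 family reads among 3013 non-181 reads (10.02%, against 6.68% over all reads). Of the 3 that were tested, Ccnd3 and Myb were higher, where 13.7% of all genes tested were, and Bcl2 did not pass. Among the 41 genes that passed the filter through both kinds of read, as Ccnd3 and Myb did, 10 were higher. Ccnd3 and Myb are in the cell cycle list too and held much of the 302 reads. The pooled share and the calls on so few genes are therefore no result about the list. The 3 lists share genes, so their counts are not independent.

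Strong sites were few. Of the 17832 sites, 75 held at least 10 reads, with 8.39% of the family's reads, and 13 had 3 or more reads in every one of the 6 libraries. The first was in Malat1 at chr19:5797535-5797634 (minus strand) with 45, 25 and 18 reads in the wild type and 46, 43 and 44 in the knockout, on 65 positions. The family made up 57.6% of non-181 reads there, and 35 further reads named miR-503-5p, the miRNA whose seed is printed above beside the family's. Other miRNAs were as frequent there, with 38 reads of miR-142a-3p and 43 of miR-181. A second Malat1 site at chr19:5797747-5797828 held 59 family reads, 1 read of miR-503-5p, 11 of miR-142a-3p and 3 of miR-181.

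In Gnas, the site at chr2:174346283-174346364 (plus strand) held 47, 25 and 18 reads in the wild type and 30, 29 and 35 in the knockout. The family made up 98.4% of its non-181 reads, miR-181 had 0, and 62 of the 184 family reads shared 1 position. Btg2 had a broader site at chr1:134076398-134076636 (minus strand), with 80 family reads on 60 positions and 307 reads of miR-181. The sites in H4c12 (chr13:21750148-21750198, 93 reads) and H4c11 (chr13:21735290-21735365, 69 reads) held nearly all family reads of these histone genes. Rn18s-rs5 had 93 reads at chr17:39846989-39847033 and 36 at chr17:39847702-39847746.

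The remaining sites of the 13 were smaller. In Pacc1, 25 family reads lay on 1 position, chr1:191326408. Chd2, a chromatin remodeller, had 27 reads on 24 positions at chr7:73426993-73427084. A site at chr14:73239319-73239438 held 34 reads where several gene spans overlap, and one outside the gene spans at chr14:65343490-65343492 held 27 reads on 2 positions. For Chd2, as for Thy1, Ccr7, Wee1 and Hspa8 named elsewhere, the strand of the gene was not known from the tables used, so the naming ignored strand.

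**Figure D4:**
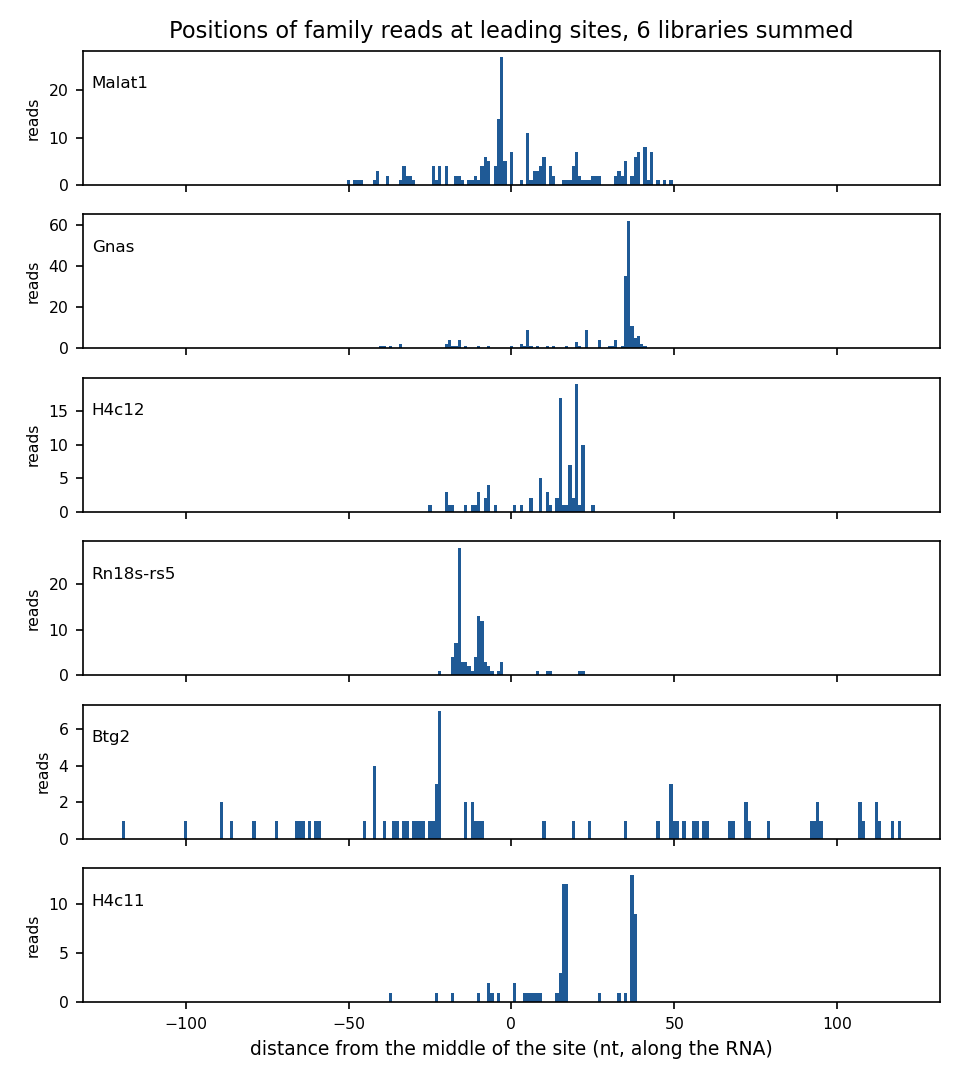
Number of family reads (vertical) by distance in nt from the middle of the site, along the RNA (horizontal), at 6 leading sites summed over 6 libraries. Reads of the Gnas site peak at 1 position with 62 of 184 reads, while the 80 reads of the Btg2 site lie on 60 positions.

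The ratio of members with 1 seed was compared between genes. Over all family reads, miR-15a-5p and miR-15b-5p together took 13.7%. The planned filter left 2 genes, of which Malat1 was called and Gnas could not be fitted, so a minimum count of 2, chosen after the data were seen, is given here. Of 50 names tested, 7 were called (14%), 2 higher for miR-15a/b (4%) and 5 lower (10%). One of the 2 higher names was Mir15b, the hairpin of miR-15b itself (log2 difference 6.51), which is no target, and the other was Malat1. Malat1 passed the filter through reads of both kinds, Mir15b through miR-15a/b reads alone and the 5 lower genes through miR-16-5p reads alone, so the values of the last 6 are descriptions. Malat1 held 94 reads of miR-15a/b and 229 of miR-16-5p, a miR-15a/b share of 29.1% (95% Wilson interval 24.4% to 34.3%). Its log2 difference from miR-16-5p was 1.34 (SE 0.23, edgeR adjusted p = 1.74e-07). The printed sequences differ between these members only outside the seed, at the bases in lower case.

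The 5 lower genes were Gnas, H4c12, Rn18s-rs5, H4c11 and Myb. All 197 family reads of Gnas named miR-16-5p, and the 0 reads of miR-15a/b allow a share of up to 1.52% there (3 reads, counting error only). Myb had 55 reads of miR-16-5p, 1 of miR-15b-5p and 0 of miR-15a-5p, a share of 1.79% (0.316% to 9.45%) and a log2 difference of -2.92 (SE 1.01). In H4c12 1.04% and in H4c11 1.43% of family reads named miR-15a/b, and in Rn18s-rs5 4.71%. Ccnd3, at 9.89% (5.29% to 17.7%), and Btg2, at 15.3% (9.79% to 23.2%), were not called. The sites in Chd2 and Pacc1 held 27 and 25 reads, all of miR-16-5p. In no gene was the ratio of members found to differ between genotypes (edgeR interaction term, 0 of 50 genes at an adjusted p of at most 0.05, 1 at an unadjusted p below 0.05).

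**Figure D5:**
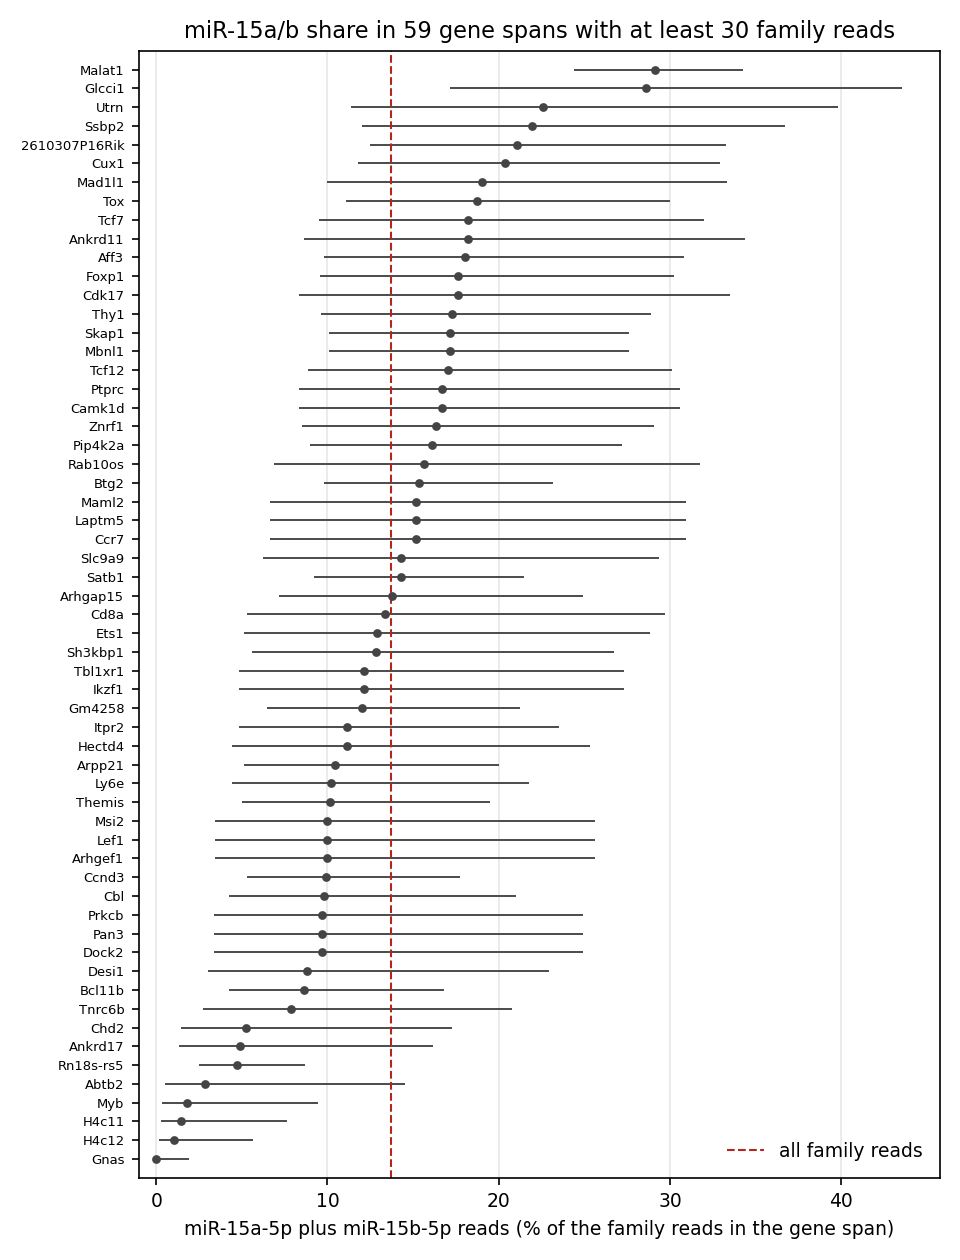
Share of miR-15a-5p plus miR-15b-5p among family reads (%) in 59 of the 60 gene spans with at least 30 family reads over 6 libraries, with 95% Wilson intervals as bars (counting error only) and a dashed line at 13.7%, the share over all family reads. Malat1 is highest at 29.1%, and Gnas is at 0%.

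Reads of the family inside its own hairpins were rare, with 48 in all (0.213%). They are given apart because the hairpin is the source of the member itself. The hairpins of Mir15b (chr3:69009772-69009835, plus strand) and Mir16-2 (chr3:69009902-69009996, plus strand) held most of them and are printed with the mature 5p strand in capitals.
Mir15b: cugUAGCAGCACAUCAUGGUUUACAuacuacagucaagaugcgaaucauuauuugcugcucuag
Mir16-2: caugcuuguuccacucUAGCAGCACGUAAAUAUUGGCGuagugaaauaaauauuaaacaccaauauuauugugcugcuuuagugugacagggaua

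In Mir15b, 18 reads of miR-15b-5p lay at chr3:69009793, 3 nt before the 3′ end of the 5p strand. In Mir16-2, 18 reads of miR-16-5p lay at chr3:69009936, also 3 nt before the 3′ end of the strand printed in capitals. In Mir16-1 the pattern was another: all 9 reads of miR-16-5p fell in the opposite arm, in miR-16-1-3p, on 5 positions. Mir15a held 2 reads, both in its 3p arm, and Mir195a, Mir497 and Mir322 held 0 family reads.

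Between genotypes, family reads per gene were compared relative to the other targets of the family. Of 19 genes with enough reads, 0 were called (0%) by edgeR's quasi-likelihood test and 0 by DESeq2, with 2 and 1 genes at an unadjusted p below 0.05. Satb1 had a log2 difference of -0.63 (SE 0.24, edgeR adjusted p = 0.295), lower in the knockout with all 3 knockout rates within or below the wild-type range of 4.44 to 7.35 per 1000 family reads. Tox, a transcription factor of thymocyte selection, had 8, 8 and 3 family reads in the wild type and 16, 13 and 16 in the knockout, a difference of 0.95 (SE 0.45, edgeR adjusted p = 0.418). Ccnd3 stood at -0.56 (SE 0.34), Btg2 at -0.41 (SE 0.28) and Gnas at -0.26 (SE 0.13), none of them past the threshold. The SE of Gnas is small for its unadjusted edgeR p of 0.211. The excess of family over other reads did not pass a test of difference between genotypes in any of 197 genes (edgeR interaction term, 0 called, 8 at an unadjusted p below 0.05).

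With a minimum count of 5, chosen after the data were seen, 68 genes were tested and 1 was called (1.47%). This was Hspa8, a constitutively made heat shock cognate protein, with 8, 12 and 3 family reads in the wild type and 1, 0 and 0 in the knockout. The log2 difference was -4.10 (SE 0.97), a description only, since the gene passed this filter through wild-type reads. Most of these reads, 7, 11 and 3 in the wild type and 0, 0 and 0 in the knockout, lay at chr9:40802809-40802845 (plus strand). Reads of other non-181 miRNAs in Hspa8 also differed in number, with 20 wild-type and 3 knockout reads, and miR-181 had 104 and 3. The part of these reads of other miRNAs in the result was not tested.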

How the data were processed

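Chimeric reads came from 6 Ago2 IP libraries (3 wild type, 3 knockout). Inputs were left out. In the deposited files, every line holds a count of 1 for a chimeric read, its 1-nt position, miRNA name and strand. Per the submitters' processing notes, Bowtie2 2.4.5, STAR 2.7.10, UMI-tools 1.1.1, SAMtools 1.11 and bedtools 2.30.0 were used with builds mm10 and GRCm38.p6. Their settings, not given in the sources read, are unknown. Lines that repeat position, strand and miRNA made up 2.44% to 4.02% of family reads and were kept.

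Reads were named by hairpin first, then by a single protein-coding span, then by any single span of RefSeq's GRCm38.p6 table, with strand where a table gives it. Mature strands and hairpins were copied from RefSeq, and all 6 members matched. Counts were fitted on the whole table with edgeR 4.0.16 in R 4.3.3 (filterByExpr, minimum count 10, TMM or library sizes alone) and tested on simulated data. DESeq2 1.42.0 was an alternative. The comparison with other miRNAs used 12 columns, with the library as a block. For shares, exact two-sided permutation tests were run in scipy 1.17.1. Intervals are 95% Wilson intervals of reads summed over the 6 libraries, which cover counting error only.

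Members, gene lists and comparisons were chosen with earlier results of these data known. Named genes are the 10 with most family reads. Against other miRNAs, they are the 10 higher and 5 lower of smallest p with an adjusted p of at most 0.05, a log2 difference of at least 1 and 6 of 6 libraries alike. They also include, for miR-15a/b against miR-16-5p, the 5 of smallest p in each direction that passed, and list genes with at least 10 family reads. Of the genes and sites the rule takes, 2 are not reported here. The design assumed enough reads to compare members at a minimum count of 10.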

Additional observations from a re-analysis of the deposited data

Results flagged for a closer look

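Family reads also appeared in the 6 libraries that were enriched for miR-181 after the Ago2 IP, which no comparison above used. There were 378 family reads in the 3 wild-type libraries and 503 in the 3 knockout libraries, above the floor of 3 reads. Of non-181 reads they made up 3.73% to 5.73% a library in the wild type and 4.01% to 4.98% in the knockout, and the ranges overlapped.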

How the results depend on the processing

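The family's share of non-181 reads stayed lower in the knockout with repeated lines counted once, without hairpin reads and without each library in turn (-0.264 to -0.130 percentage points). It reversed with all reads as the denominator (1.82), as did miR-15a-5p (0.0499) and miR-16-5p (1.51). With library sizes alone, miR-15a-5p (0.40) and miR-16-5p (0.46) reversed, miR-15b-5p passed (0.62), and 89 names were called in place of 10. Without a filter 22 names were called, and leaving out 1 library gave 2 to 19, with 2 without wild-type library 1, 6 without wild-type library 2 and 19 without knockout library 2.

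Replicate numbers were not found to pair the libraries (correlations of same-numbered libraries -0.265, 0.152 and 0.0443). With the replicate number as a block, 16 names were called, the family's share differed by -0.196 points (exact p = 0.25, the smallest that 3 pairs allow), and 0 genes differed between genotypes.

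Against other miRNAs, 116 genes were called without a filter (12409 tested), 110 at a minimum count of 5, 26 in wild-type and 89 in knockout libraries alone, and 35 without miR-142a-3p (97 tested). Leaving out 1 library gave 52 to 88. With TMM factors 57 of the 59 calls were shared, and with DESeq2 48. Reversed were Bcl2 in knockout libraries alone (0.17, and -0.589 to 0.0949 without 1 library), Bcl2l1 there (0.0061), and Satb1 in wild-type libraries alone (0.16), without miR-142a-3p (0.0664) and without 1 library (-0.211 to 0.0619).

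Family reads between genotypes gave 1 called gene at minimum counts of 5 and 2 and without a filter, and 0 without each library. For miR-15a/b against miR-16-5p the planned filter gave 1 call. It gave 0 with TMM factors, which cannot work on so few genes, 4 without a filter, 3 and 2 in wild-type and knockout libraries alone, 2 without the library block, and 3 and 7 at minimum counts of 5 and 2. Leaving out 1 library gave 1 to 3, with 2 without wild-type library 3 and 3 without knockout library 2. DESeq2 was not run there, since too few genes remained. Except where fewer or more genes were tested, the cause of these shifts was not tested. Depth limits most single genes to a few reads a library.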
